A study of Arabidopsis thaliana with 11 samples.

Results

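The 36 genes described here encode the D-type, B-type and A-type cyclins and the KIP-RELATED PROTEINs (KRPs) of Arabidopsis thaliana, 36 of 27444 annotated protein-coding nuclear genes. They were chosen by gene family and not by a binding value: 10 D-type cyclins (CYCD), 9 B-type cyclins (CYCB), 10 A-type cyclins (CYCA) and 7 KRPs. A gene was counted as bound in a peak list when the authors of the study had listed its locus for a peak of that list. Locus numbers stand in place of cyclin names after the first mention of each gene.

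The study followed where APETALA1 (AP1) and SEPALLATA3 (SEP3), both of the MADS-domain family, bound DNA during early flower development, with chromatin immunoprecipitation and sequencing (ChIP-seq), which maps the places in the genome that a protein occupies. All plants were of the ecotype Landsberg with the genotype pAP1:AP1-GR ap1 cal. They lacked the endogenous AP1 and CAULIFLOWER functions and carried AP1 fused to the hormone-binding part of the glucocorticoid receptor under the AP1 promoter. Dexamethasone (DEX), given daily to the inflorescences of all groups, moves this fusion protein into the nucleus, after which floral meristems begin to form together. Whole inflorescences were harvested 2, 4 and 8 days later, so binding in different cell types cannot be told apart. At each day an anti-GR antibody precipitated AP1-GR and a peptide antibody precipitated SEP3, and pre-immune serum served as the mock control of each day. The SEP3 samples of day 2 are titled as day 2, but their tissue label reads 4 days, and every SEP3 day 2 value below carries this doubt.

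Cyclins activate cyclin-dependent kinases (CDKs). D-type cyclins respond to growth signals and promote entry into DNA synthesis through phosphorylation of the RETINOBLASTOMA-RELATED protein, A-type cyclins act mainly from DNA synthesis to mitosis, and B-type cyclins act at mitosis. KRPs bind cyclin and CDK complexes and inhibit them, and in plants they restrain division and influence the change to endoreduplication, in which DNA is copied without division. MADS-domain proteins such as AP1 and SEP3 bind DNA as dimers, typically at CArG boxes, in which 6 bases of A or T stand between CC and GG.

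The data are 6 lists of binding sites (BSs), 1 for each factor and day, with the replicates of a factor and day combined before peaks were called. The lists held 498 AP1 peaks at day 2, 956 at day 4 and 1075 at day 8, and 1776, 6843 and 7815 SEP3 peaks at the same days. With 1 combined list per factor and day there is no spread between replicates, so no test was possible and every difference below is a description. Read numbers were not analysed here, lists differ in length, and a gene without a listed peak is not shown to be unbound. Fold enrichment is the signal at the summit over the control, and since lists were called separately, a peak is ranked by its percentile, the percent of peaks of its own list with a lower fold enrichment.

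D-type cyclins and KRPs held most of the binding, and SEP3 peaks were listed for many more of the 36 genes than AP1 peaks. AP1 peaks were listed for 2 of the 36 genes at day 2 (5.56%), 5 at day 4 (13.9%) and 3 at day 8 (8.33%), against 1.78%, 3.55% and 3.89% of all protein-coding genes. SEP3 peaks were listed for 6 genes at day 2 (16.7%), 16 at day 4 (44.4%) and 17 at day 8 (47.2%), against 6.59%, 25.7% and 28.3% of all protein-coding genes. Over the 3 days together, 5 genes had an AP1 peak and 17 a SEP3 peak, against 5.23% and 31.1% of all protein-coding genes. All 5 genes with an AP1 peak also had SEP3 peaks. The difference between the factors went with list length. When each list was shortened to its 498 peaks of highest fold enrichment, AP1 was listed for 2, 3 and 1 of the 36 genes, against 1.78%, 1.89% and 1.95% of all protein-coding genes, and SEP3 for 1, 2 and 2, against 2.01%, 2.29% and 2.31%.

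The classes differed in their counts. Among the 10 CYCD genes, AP1 peaks were listed for 2, 3 and 2 genes at days 2, 4 and 8, and SEP3 peaks for 5, 6 and 6 genes. Among the 7 KRPs, AP1 peaks were listed for 0, 2 and 1 genes at the 3 days, and SEP3 peaks for 1, 7 and 7. Every KRP thus had a SEP3 peak at day 4 and at day 8. In the lists shortened to 498 peaks this fell to 0 and 2 KRPs, so most of these peaks were not among the strongest of their lists. AP1 peaks were listed for 0 of the 9 CYCB and 0 of the 10 CYCA genes at any day. Over the 3 days 5.23% of all protein-coding genes had one, so these counts do not set the 2 classes apart. SEP3 peaks were listed for 0, 1 and 2 of the 9 CYCB genes and for 0, 2 and 2 of the 10 CYCA genes. Of all protein-coding genes 6.59%, 25.7% and 28.3% had a SEP3 peak at the 3 days. With so few genes the SEP3 counts do not set the 2 classes apart either. When each peak was given to its nearest gene instead, SEP3 was listed for 2 and 3 CYCB genes and for 2 and 3 CYCA genes at days 4 and 8, against 17.5% and 19.7% of all protein-coding genes. By the same rule AP1 was listed for 1 CYCB gene at days 4 and 8, against 2.83% and 3.07%.

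**Figure D1:**
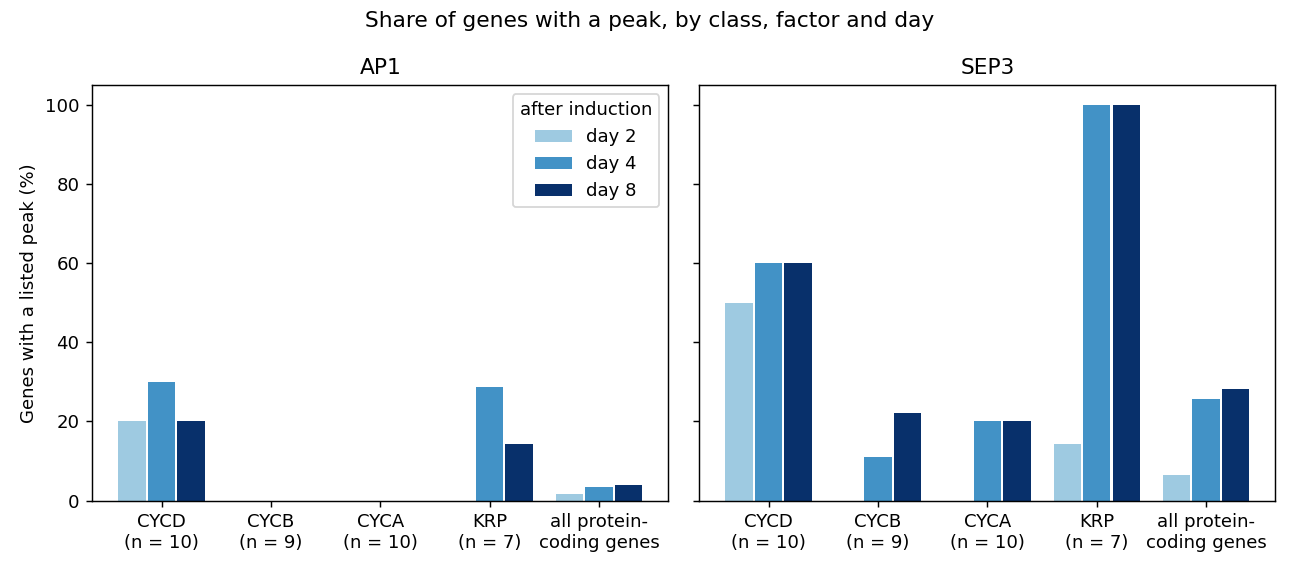
Share of genes with a listed peak (%) in each class and among all protein-coding genes, for AP1 (left) and SEP3 (right) at days 2, 4 and 8, with bars from 0 and no error bars because each list combines its replicates. All 7 KRPs carried a SEP3 peak at days 4 and 8. No B-type or A-type cyclin had a listed AP1 peak, and at most 3.89% of all protein-coding genes had one in a single list.

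In the authors' gene columns 1 gene, the D-type cyclin CYCD3;2 (AT5G67260), had an AP1 peak at all 3 days (1.07% of all protein-coding genes did). When the window stated for those columns was applied to the RefSeq annotation there were 2, and CYCD1;1 (AT1G70210) was the other (1.12% of all protein-coding genes did). SEP3 peaks at all 3 days were listed for 6 genes, against 6.07% of all protein-coding genes. These were AT5G67260, AT1G70210 and the D-type cyclins CYCD3;1 (AT4G34160), CYCD3;3 (AT3G50070) and CYCD4;1 (AT5G65420), together with KRP7 (AT1G49620). No peak of any list was given for 19 of the 36 genes. They were the CYCD2, CYCD5, CYCD6 and CYCD7 genes (AT2G22490, AT4G37630, AT4G03270 and AT5G02110), the 4 CYCB1 genes, 2 CYCB2 genes (AT2G17620 and AT1G76310) and the CYCB3 gene (AT1G16330). Among the A-type cyclins they were 1 CYCA1 gene (AT1G77390), 3 CYCA2 genes (AT5G25380, AT1G15570 and AT1G80370) and the 4 CYCA3 genes. Genes without a listed peak thus included all CYCB1 and CYCA3 genes. Over the 3 days SEP3 was listed for 31.1% and AP1 for 5.23% of all protein-coding genes. Most genes of the genome therefore had no listed peak either.

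**Figure D2:**
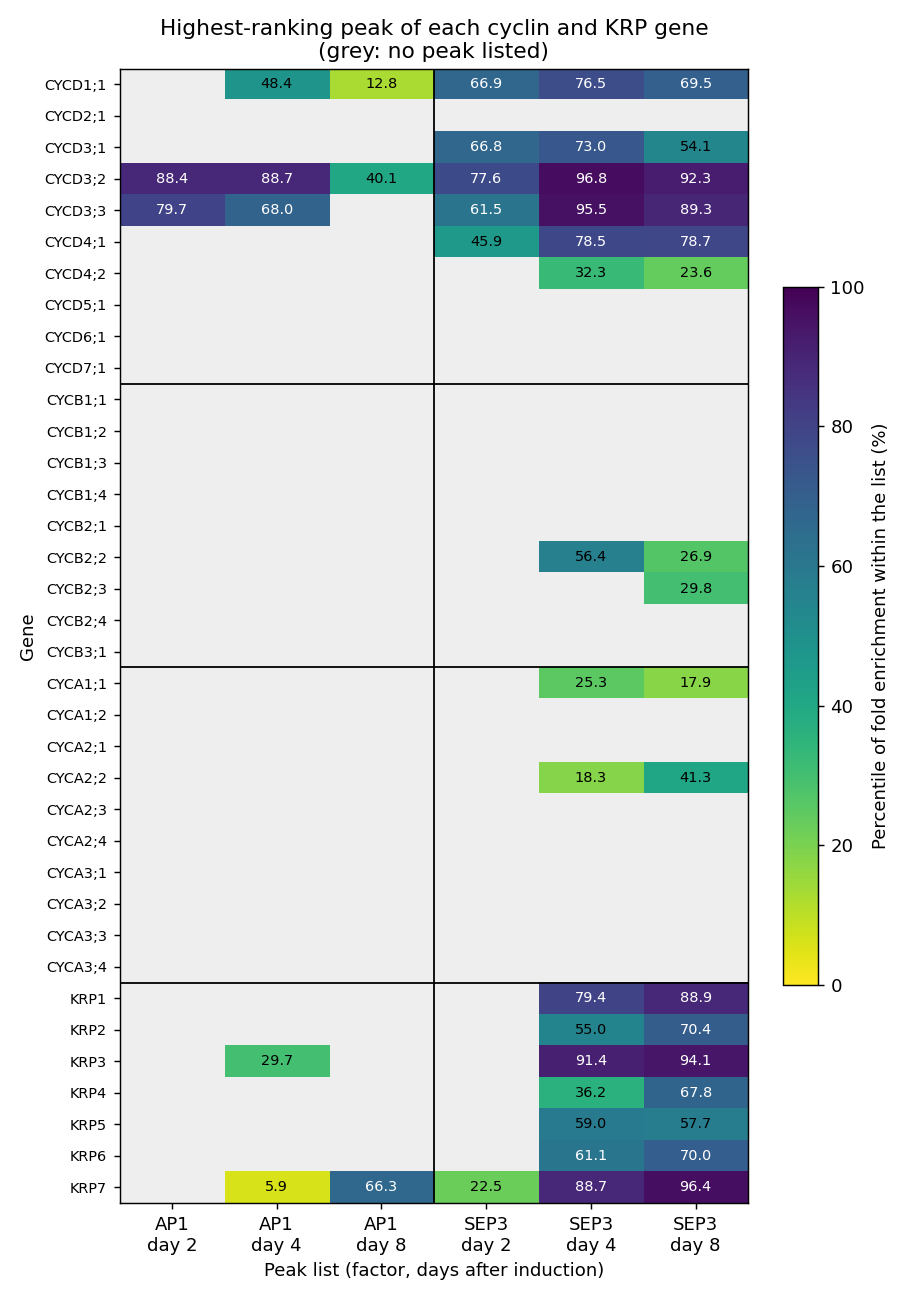
Percentile of fold enrichment (%) of the highest-ranking peak of each gene in each list, with AP1 columns left of SEP3 columns and days in order. Grey cells had no listed peak. The highest values were 96.8 for AT5G67260 and 95.5 for AT3G50070 with SEP3 at day 4 and 96.4 for KRP7 with SEP3 at day 8.

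The 87 peaks listed for these genes fell into 39 bound regions at 17 genes when overlapping peaks of different lists were joined. The 6 bound CYCD genes held 20 regions, the 7 KRPs 14, the 2 bound CYCB genes 3 and the 2 bound CYCA genes 2. AP1 peaks were part of 7 regions, 4 at CYCD genes and 3 at KRPs, and all 7 also held a SEP3 peak in at least 1 list. Of the 39 regions, 20 had SEP3 peaks at days 4 and 8 but not at day 2, and 10 had a SEP3 peak at day 8 but not at day 4. The same counts over all genes were not made. The SEP3 list of day 2 is much shorter (1776 peaks) than those of days 4 and 8 (6843 and 7815). These counts therefore cannot be read as a timing particular to the cyclin and KRP genes. For 12 of the 39 regions no other gene was listed, so at most regions the peak was also assigned to a neighbour and the regulated gene cannot be told from position.

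Bound genes of the CYCD and KRP classes often carried several SEP3 peaks. At day 4, 10 of the 16 bound genes had at least 2 SEP3 peaks, against 30.0% of all protein-coding genes with a peak. At day 8 the count was 13 of 17, against 32.2%. All 6 bound CYCD genes and 6 of the 7 KRPs were among those 13. The median fold enrichment of the peaks at these genes lay close to that of the whole list, with 4.50 against 4.20 for SEP3 at day 4 and 3.42 against 3.27 at day 8. For AP1 it was 5.06 against 4.09 at day 2, 3.93 against 4.20 at day 4 and 2.82 against 3.14 at day 8, from 3, 6 and 4 peaks.

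Many summits at CYCD genes and KRPs lay on the 3′ side of the coding sequence. Each summit was placed against the start and stop codons of 1 RefSeq protein model per gene. For AP1, 3 of 3, 4 of 6 and 2 of 4 peaks of days 2, 4 and 8 had the summit after the stop codon, against 19.2%, 21.2% and 22.9% of all peak and gene pairs of the lists. For SEP3 the counts were 5 of 9, 15 of 30 and 13 of 35, against 21.2%, 22.8% and 23.0%. The AP1 counts depended on the protein model of AT5G67260. With the widest coding span over all models of each gene, an alternative chosen after seeing the data, AP1 had 1 of 3, 3 of 6 and 1 of 4 such peaks, against 18.9%, 21.0% and 22.6%, and SEP3 had 4 of 9, 14 of 30 and 12 of 35, against 21.1%, 22.6% and 22.8%. All of these peaks belonged to CYCD genes and KRPs, since every peak of the bound CYCB and CYCA genes lay before the start codon. A peak between 2 genes is counted here for both. SEP3 peaks listed for a single gene were therefore also taken alone. Of those at these genes, 4 of 9 at day 4 and 4 of 12 at day 8 lay after the stop codon. Over all genes the shares were 15.0% and 15.8%. The peaks after the stop codon were all at CYCD genes. Every KRP peak after the stop codon was also listed for a neighbour and so is not among them. With the widest span the single-gene counts were 3 of 9 and 3 of 12, against 14.8% and 15.5%. This comparison was chosen after the positions were seen.

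**Figure D3:**
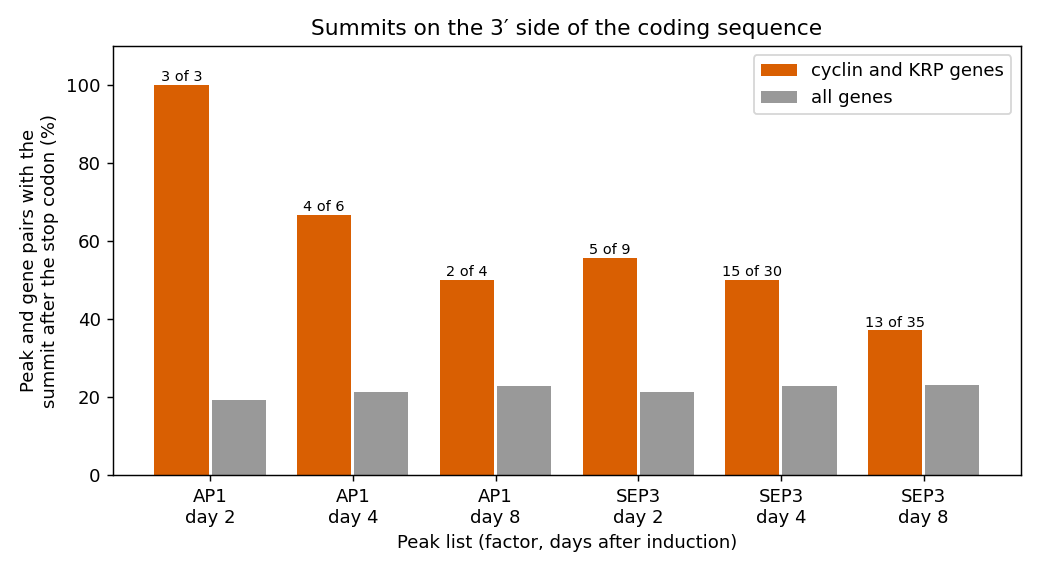
Share of peak and gene pairs (%) whose summit lay after the stop codon, for the cyclin and KRP genes (left bar, count above it) and for all genes (right bar) in each of the 6 lists, with bars from 0. The counts use 1 protein model per gene. With the widest coding span over all models the AP1 counts were 1 of 3, 3 of 6 and 1 of 4.

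CYCD3;2 (AT5G67260, chr5:26836139-26839597, plus strand) and CYCD3;3 (AT3G50070, chr3:18565134-18566834, minus strand) carried the highest-ranking listed peaks of the cyclins. Peaks without a listed gene near AT1G70210 and AT2G17620 also ranked high and are described under the other observations. The CYCD3 genes are known to prolong cell division in growing leaves and petals. At AT5G67260 the main region lay 363 to 751 bp after the stop codon of the shorter protein model, inside the intron and exons of a longer transcript model. AP1 had 2 peaks there at day 2, with fold enrichments of 3.91 and 5.84 (percentiles 41.6 and 88.4), 1 peak of 6.04 at day 4 (88.7) and 1 of 2.60 at day 8 (9.9). SEP3 had 1 peak at each day, with 5.66 at day 2 (77.6), 9.86 at day 4 (96.8) and 6.42 at day 8 (92.3). Its peaks of days 4 and 8 were broad, 1703 and 1609 bp wide, against 692 bp for the AP1 peak of day 4. Both factors thus occupied the region at all 3 days, with the AP1 peak low in its list at day 8 and the SEP3 peak still high. No other gene was listed for these peaks.

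A weaker region lay upstream of AT5G67260. AP1 had a peak there at day 8 only, 615 bp before the start codon with a fold enrichment of 3.02 (percentile 40.1). SEP3 had peaks 549 bp before the start codon at day 4 (3.01, percentile 11.4) and 569 bp at day 8 (3.07, percentile 43.1). The upstream AP1 peak at day 8 ranked above the AP1 peak on the 3′ side in the same list. A SEP3 peak 1487 bp before the start codon was listed at day 8 only (3.23, percentile 48.7). The neighbour AT5G67250 was listed for all upstream peaks.

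AT3G50070 showed the same arrangement, and no other gene was listed for any of its peaks. Its main region lay 511 to 601 bp after the stop codon. AP1 peaks reached 5.06 at day 2 (percentile 79.7) and 4.84 at day 4 (68.0), and none was listed at day 8. SEP3 peaks reached 4.73 at day 2 (61.5), 9.29 at day 4 (95.5) and 5.93 at day 8 (89.3). Upstream peaks were listed for SEP3 alone, with 3.80 at 340 bp before the start codon at day 4 (39.2) and 4.93 at 314 bp at day 8 (80.5). A further SEP3 peak of 2.34 lay 1626 bp before the start codon at day 8 (9.7).

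The bound regions of these 2 genes also resembled each other in sequence. Windows of 301 bp around the strongest summit of each of the 39 regions were aligned locally in all 706 pairs between different genes, after a likeness between the 2 genes had been noticed. The 2 highest scores, 41 each against a median of 13, belonged to the 3′ regions and to the distal upstream regions of AT5G67260 and AT3G50070. The 3′ regions shared 124 identical bases in 188 alignment columns (66.0%), and the distal upstream regions 125 in 180 (69.4%), with an unbroken run of 29 identical bases. The aligned stretches are shown because the summits of the AP1 and SEP3 peaks on the 3′ side of both genes lie in them, except that of the weaker AP1 peak of AT5G67260 at day 2 (3.91). Capitals mark bases identical in the alignment, on the gene strand of TAIR10, at chr5:26838284-26838464 (plus strand) and chr3:18564638-18564813 (minus strand).
AT5G67260 3′ region: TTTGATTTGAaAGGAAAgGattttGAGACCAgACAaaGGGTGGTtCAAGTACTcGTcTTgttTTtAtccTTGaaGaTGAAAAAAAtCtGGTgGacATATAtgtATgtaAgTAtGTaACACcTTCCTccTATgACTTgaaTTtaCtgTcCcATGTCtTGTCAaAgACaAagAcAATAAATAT
AT3G50070 3′ region: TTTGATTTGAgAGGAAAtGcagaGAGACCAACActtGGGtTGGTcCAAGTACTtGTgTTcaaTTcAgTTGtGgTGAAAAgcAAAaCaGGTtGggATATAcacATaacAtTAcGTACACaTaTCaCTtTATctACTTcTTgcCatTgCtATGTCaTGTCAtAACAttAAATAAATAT
The distal upstream pair lay at chr5:26834785-26834961 (plus strand) and chr3:18568254-18568407 (minus strand), where both genes had a SEP3 peak at day 8 only.
AT5G67260 upstream region: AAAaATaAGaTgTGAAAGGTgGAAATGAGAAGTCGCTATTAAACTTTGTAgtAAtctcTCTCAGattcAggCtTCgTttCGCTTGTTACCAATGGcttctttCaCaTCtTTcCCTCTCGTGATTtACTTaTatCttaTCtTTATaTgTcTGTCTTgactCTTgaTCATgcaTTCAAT
AT3G50070 upstream region: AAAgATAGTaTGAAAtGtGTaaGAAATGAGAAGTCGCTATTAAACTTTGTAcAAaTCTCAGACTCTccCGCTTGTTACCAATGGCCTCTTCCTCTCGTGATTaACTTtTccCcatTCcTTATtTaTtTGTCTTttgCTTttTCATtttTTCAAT
The next pair by score joined the 3′ regions of KRP6 and KRP7, with 66 identical bases in 92 columns (71.7%) and a run of 18. How often flanks of these genes without a listed peak align as well was not tested.

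CYCD3;1 (AT4G34160, chr4:16357421-16359565, plus strand), the remaining CYCD3 gene, had no AP1 peak in any list. SEP3 peaks at the gene start, 495 and 531 bp before the start codon, had fold enrichments of 5.63 at day 4 (percentile 73.0) and 3.14 at day 8 (45.5). A 3′ region 903 to 910 bp after the stop codon gave 4.73 at day 4 (59.8) and 3.42 at day 8 (54.1). The day 2 peaks lay elsewhere, 2252, 1695 and 1374 bp before the start codon, with 4.96, 3.11 and 2.44 (66.8, 6.2 and 0.2), and AT4G34150 was listed for them too. The first of these places held a SEP3 peak again at day 4 (3.48, percentile 28.9) and the last again at day 8 (2.44, percentile 14.7).

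CYCD1;1 (AT1G70210, chr1:26439556-26443007, plus strand) was bound by both factors on its 3′ side. AP1 peaks lay 1446 bp after the stop codon at day 4 (4.17, percentile 48.4) and 1373 bp at day 8 (2.62, percentile 12.8). A SEP3 peak lay 1332 bp after the stop codon at day 2 (4.97, percentile 66.9). At days 4 and 8 a broad SEP3 peak covered this place, but its summit lay farther out and no gene was listed for it. SEP3 also had a peak 216 to 299 bp after the stop codon at each day, with 4.12, 5.99 and 4.12 (42.1, 76.5 and 69.5), for which AT1G70209 was listed too. At day 8 alone SEP3 peaks of 3.73 and 2.40 were listed 1194 and 2671 bp before the start codon.

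CYCD4;1 (AT5G65420, chr5:26141470-26144020, minus strand) had a SEP3 peak inside its coding region at every day. Its fold enrichment was 4.21 at day 2 (percentile 45.9), 6.19 at day 4 (78.5) and 4.56 at day 8 (76.1). A 3′ peak lay 459 bp after the stop codon at day 4 (5.69, percentile 73.5) and 454 bp at day 8 (4.77, percentile 78.7). No other gene was listed for these peaks. The related CYCD4;2 (AT5G10440) had SEP3 peaks of 3.57 and below, none over percentile 32.3.

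**Figure D4:**
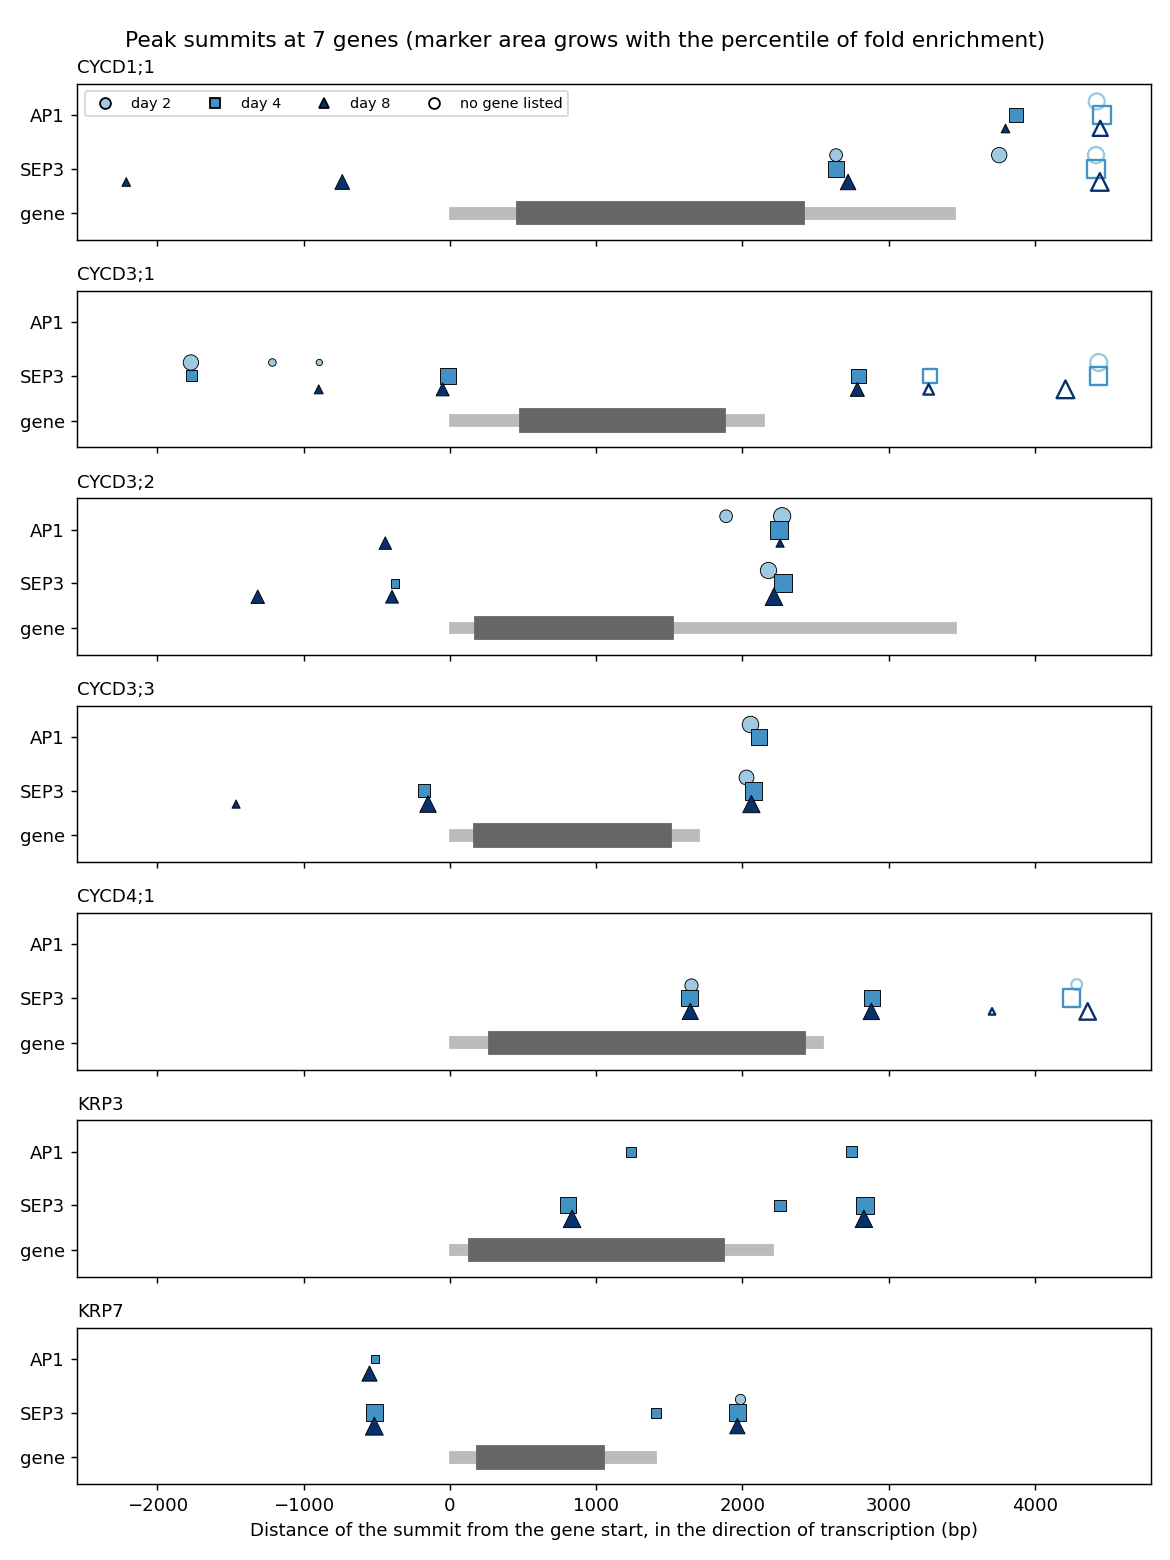
Distance of each peak summit from the gene start in the direction of transcription (bp) at the 7 genes bound by AP1 or by SEP3 at all 3 days, with AP1 above SEP3 and the gene below (light bar gene, dark bar coding span). Marker area grows with the percentile and open markers are peaks without a listed gene. The largest AP1 and SEP3 markers of the middle CYCD3 panels (AT5G67260 and AT3G50070) stand to the right of the coding span, and those of KRP7 stand to the left of it.

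KRP7 (AT1G49620, chr1:18365336-18366744, minus strand) was the KRP with the highest-ranking peak and the only gene of the 36 with an exact CArG box near the summit of a listed peak. Upstream, AP1 peaks lay 696 bp before the start codon at day 4 (2.95, percentile 5.9) and 735 bp at day 8 (3.53, percentile 66.3). SEP3 peaks lay 701 bp before the start codon at both days, with 7.63 at day 4 (88.7) and 7.36 at day 8 (96.4). The SEP3 peak thus ranked high in both lists, while the AP1 peak at day 4 was among the weakest of its list. The neighbour AT1G49630 was listed for them as well. On the 3′ side SEP3 peaks reached 3.62 at day 2 (22.5), 6.81 and 3.31 at day 4 (83.8 and 22.0) and 3.99 at day 8 (67.0), and AT1G49610 was listed too.

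The box of KRP7 lay 3 bp from the SEP3 summits of days 4 and 8, and 2 and 37 bp from the AP1 summits of days 4 and 8. It is shown in capitals within the 101 bp around the SEP3 summit (chr1:18367210-18367310, minus strand, TAIR10 sequence from RefSeq).
KRP7 upstream: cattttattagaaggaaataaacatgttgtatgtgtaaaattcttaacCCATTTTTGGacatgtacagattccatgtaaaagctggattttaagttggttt
An exact box within 50 bp of the summit was present in 0 of 3, 1 of 6 and 1 of 4 AP1 peaks of these genes at days 2, 4 and 8, against 7.03%, 6.17% and 5.58% of all AP1 peaks. For SEP3 it was present in 0 of 9, 1 of 30 and 1 of 35, against 7.09%, 6.02% and 5.81%. With so few peaks the counts do not separate the cyclin and KRP genes from the whole lists.

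With 1 mismatch allowed, boxes were present in 1 of 3, 1 of 6 and 1 of 4 AP1 peaks of these genes at days 2, 4 and 8. For SEP3 they were present in 3 of 9, 8 of 30 and 10 of 35. Of all AP1 peaks 33.7%, 33.4% and 31.9% held one, and of all SEP3 peaks 32.8%, 34.7% and 33.8%. The counts at these genes lay near or below those shares. The following windows show the near matches closest to the summits of CYCD genes and KRPs, at most 1 per gene, with the 10 bases in capitals. They lie at chr2:13875725-13875825 (plus strand) for KRP4 at day 8, chr3:6616683-6616783 (minus strand) for KRP6 at day 4, chr1:26442146-26442246 (plus strand) for AT1G70210 at day 4, chr3:18564761-18564861 (minus strand) for AT3G50070 at day 2, and chr4:16360164-16360264 (plus strand) for AT4G34160 at day 4, all around SEP3 summits.
KRP4 3′: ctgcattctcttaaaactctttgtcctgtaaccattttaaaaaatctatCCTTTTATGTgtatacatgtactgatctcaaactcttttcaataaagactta
KRP6: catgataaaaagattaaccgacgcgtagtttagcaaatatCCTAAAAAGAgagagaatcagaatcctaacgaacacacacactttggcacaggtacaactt
AT1G70210 3′: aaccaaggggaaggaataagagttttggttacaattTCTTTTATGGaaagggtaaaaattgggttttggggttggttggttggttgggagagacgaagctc
AT3G50070 3′: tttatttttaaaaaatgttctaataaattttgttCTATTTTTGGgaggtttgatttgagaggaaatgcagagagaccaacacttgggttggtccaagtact
AT4G34160 3′: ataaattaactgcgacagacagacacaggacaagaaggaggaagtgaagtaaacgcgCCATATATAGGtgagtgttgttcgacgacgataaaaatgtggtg
In AT4G34160, 2 overlapping near matches fill 11 bases. No box of either kind was found in the summit windows of AT5G67260, AT5G65420, KRP1, KRP2, KRP3 or KRP5.

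KRP3 (AT5G48820, chr5:19792270-19794480, minus strand) was bound by both factors at day 4, inside the gene and on its 3′ side. AP1 peaks were listed at day 4 only, with 3.69 at 874 bp after the stop codon (percentile 29.7) and 3.53 inside the coding span (21.4). SEP3 peaks on the 3′ side had 8.21 and 3.54 at day 4 (91.4 and 31.0) and 6.26 at day 8 (91.5). Inside the coding span SEP3 had 5.69 at day 4 (73.5) and 6.80 at day 8 (94.1). Both AP1 peaks ranked in the lower part of their list. AT5G48810 was listed for the 3′ peaks and for the inner AP1 peak, and not for the inner SEP3 peaks.

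The other 5 KRPs had SEP3 peaks at days 4 and 8 only. KRP1 (AT2G23430) ranked highest, with 6.28 at day 4 (percentile 79.4) and 5.86 at day 8 (88.9), 227 and 231 bp after the stop codon. KRP2 (AT3G50630) was bound upstream, 2029 bp before the start codon at day 4 (4.46, percentile 55.0) and 2021 bp at day 8 (4.17, percentile 70.4), and was the only 1 of the 5 for which no neighbour was listed. KRP4 (AT2G32710), KRP5 (AT3G24810) and KRP6 (AT3G19150) had best percentiles of 36.2, 59.0 and 61.1 at day 4 and 67.8, 57.7 and 70.0 at day 8. Those peaks lay after the stop codon at KRP4 and KRP5 and inside the coding span at KRP6. For the 7 KRPs together, the median percentile of SEP3 peaks was 57.0 at day 4 and 67.4 at day 8, from 14 peaks each.

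The bound B-type and A-type cyclins had few peaks, all from SEP3. All but that of CYCB2;2 at day 4 lay below the median fold enrichment of their list (4.20 at day 4 and 3.27 at day 8). All lay before the start codon, as did 69.9% and 70.2% of all SEP3 peak and gene pairs at days 4 and 8. CYCB2;2 (AT4G35620) had 4.53 at day 4 (percentile 56.4) and 2.68 at day 8 (26.9), 406 and 403 bp before the start codon. CYCB2;3 (AT1G20610) had 2.74 and 2.15 at day 8 (29.8 and 2.8). CYCA1;1 (AT1G44110) had 3.40 at day 4 (25.3) and 2.51 at day 8 (17.9), and CYCA2;2 (AT5G11300) had 3.21 (18.3) and 3.01 (41.3). No peak of these 4 genes exceeded percentile 56.4, against 96.8 for the CYCD genes and 96.4 for the KRPs. The CYCD genes and KRPs had many more peaks, and a maximum tends to grow with their number. The median percentiles of SEP3 peaks at days 4 and 8 were 59.8 and 51.4 for CYCD genes. They were 56.4 and 26.9 for CYCB genes (1 and 3 peaks) and 21.8 and 29.6 for CYCA genes (2 peaks each).

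Most SEP3 peaks of day 4 at these genes were found again at day 8, a share near that of all SEP3 peaks. Of the AP1 peaks, 3 of 3 from day 2 overlapped an AP1 peak of day 4 by at least 1 bp, against 82.7% of all AP1 peaks with a listed gene, and 3 of 6 from day 4 overlapped one of day 8, against 65.2%. The 3 that were not found again at day 8 belonged to AT3G50070 and, with 2 peaks, to KRP3. Of the SEP3 peaks, 7 of 9 from day 2 were found at day 4, against 93.4%, and 28 of 30 from day 4 at day 8, against 86.6%. When the overlap had to cover at least 50% of both peaks, 22 of 30 from day 4 were found at day 8, against 79.0%. The 2 lost after day 2 and 1 of the 2 lost after day 4 lay upstream of AT4G34160.

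Most AP1 peaks at these genes overlapped a SEP3 peak of the same day, as most AP1 peaks of the lists did. The counts for days 2, 4 and 8 were 2 of 3, 6 of 6 and 4 of 4, against 84.9%, 99.8% and 96.8% of all AP1 peaks with a listed gene. With 50% of both peaks covered the counts were 1, 0 and 1, against 51.2%, 37.6% and 26.3%. The AP1 peak that overlapped no SEP3 peak by 1 bp was that of 3.91 at AT5G67260 at day 2. The AP1 lists are much shorter than the SEP3 lists, and how much list length adds to these shares was not tested.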

How the data were processed

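ChIP-seq of AP1-GR and SEP3 was done on whole inflorescences 2, 4 and 8 days after DEX. As the labels and the paper's methods state, the authors called bases with CASAVA (1.7 and 1.8), mapped reads to the Arabidopsis genome with Bowtie 0.12.7, kept reads with a single nuclear location, pooled replicates and called peaks with MACS against the mock control. The 6 deposited lists give start, end and summit, the fold enrichment as a linear ratio, and significance as −log10 of the p-value and q-value. The smallest deposited −log10 q lay between 2.99 and 3.29. For the gene columns the authors state a window of 3000 bp upstream to 1000 bp downstream. Blank rows (230 and 111 in the AP1 lists of days 4 and 8) were dropped. Mock lists, replicate lists and read depth were not analysed here.

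From these lists, members were found by locus with Python 3.11.15 and pandas 2.3.3, and the assignment, overlap and box steps were tested on simulated data. All 36 loci matched the RefSeq annotation of TAIR10.1, whose nuclear coordinates are those of TAIR10. All 87 listed pairs of peak and member lay in this window on that annotation, and so did 6 further pairs, all of CYCD1;1, which the deposited columns do not list. Coding positions used the RefSeq protein with the lowest number per gene. Alignments scored 1 for a match, -1 for a mismatch and -2 for a gap. Groups were taken from sample titles. Genes named with values were those with an AP1 peak, those with SEP3 peaks at all 3 days, and the 5 next by percentile, and the remaining bound genes are named briefly with values outside this rule. The members and gene lists were chosen with earlier results of these data known. The alternatives were a stricter −log10 q of 10, lists shortened to 498 peaks, other gene windows, other overlap rules and other box rules, and, chosen after seeing the data, the widest coding span over all protein models.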

Additional observations from a re-analysis of the deposited data

How the results depend on the processing

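No paired analysis was possible because each list pools its replicates, and for the same reason no replicate could be left out. In lists of equal length (the 498 peaks of highest fold enrichment in each), AP1 peaks remained listed for 3 members at day 4 and 1 at day 8, and SEP3 peaks for 1, 2 and 2 members at days 2, 4 and 8. By class, CYCD genes then had AP1 peaks at day 8 for 0 and SEP3 peaks for 1, 2 and 0 genes, KRPs had AP1 peaks at day 4 for 0 and SEP3 peaks for 0, 0 and 2, and CYCB and CYCA genes had SEP3 peaks for 0 at days 4 and 8. At equal length SEP3 counts thus exceeded AP1 counts at day 8 only, by 1 gene. With a −log10 q of at least 10, AP1 members numbered 2 at day 4 and 1 at day 8, with 0 KRPs at day 4 and 0 CYCD genes at day 8. SEP3 counts moved to 0 KRPs at day 2 and 1 CYCA gene at day 4, while all 7 KRPs kept a SEP3 peak at days 4 and 8. Of all protein-coding genes 2.04% had such an AP1 peak at each of days 4 and 8. For SEP3 the shares were 3.03%, 20.0% and 24.4% at days 2, 4 and 8. Shared peaks then numbered 0 for AP1 day 4 in day 8, 4 for SEP3 day 2 in day 4, 2 for AP1 in SEP3 at day 4 and 1 at day 8, and 0 AP1 peaks at day 4 had a box. From 1000 bp upstream to the gene end, AP1 was listed for 1 member at day 2 and 3 at day 4. These included 1 CYCD gene at each day, and 1 CYCD gene had an AP1 peak at day 8. SEP3 was listed for 0 KRPs at day 2 and 1 CYCB gene at day 8. At both days 4 and 8 SEP3 was listed for 5 of the 7 KRPs and 13 of the 36 members. Over all protein-coding genes the AP1 shares were 0.867%, 1.66% and 1.89%, and the SEP3 shares 3.5%, 15.3% and 16.7%. By nearest gene, 1 CYCB gene had an AP1 peak at days 4 and 8, and 2 had a SEP3 peak at day 4. A reciprocal overlap of 50% left 1 of 3 shared peaks for AP1 day 2 in day 4, against 49.0% of all peaks with a listed gene. For SEP3 day 2 in day 4 it left 1 of 9, against 17.9%. For AP1 in SEP3 it left 1 of 3, 0 of 6 and 1 of 4 at days 2, 4 and 8. The shares of all were 51.2%, 37.6% and 26.3%. With the widest coding span over all protein models of a gene, chosen after seeing the data, AP1 peaks after the stop codon numbered 1 at day 2 and 1 at day 8. With 1 mismatch, boxes lay in 1 AP1 peak at day 2 and in 3, 8 and 10 SEP3 peaks. The authors' window on the annotation, summits within 150 bp and a box window of 100 bp kept each count of members per list, shared peaks and boxes within 1.5 times. With the authors' window on the annotation, genes with an AP1 peak at all 3 days went from 1 to 2.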

Other observations

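Beyond the cyclins and KRPs, 27 other cell cycle genes were looked up, namely CDKs, RETINOBLASTOMA-RELATED and E2F-DP proteins, the SIAMESE inhibitors, activators of the anaphase-promoting complex, CDK regulators and MYB3R factors. None had an AP1 peak at any day or a SEP3 peak at day 2. SEP3 peaks were listed for 7 of the 27 at day 4 and for 7 at day 8 (25.9% each), against 25.7% and 28.3% of all protein-coding genes. At both days these included CDKA;1, the main CDK partner of D-type cyclins, with low percentiles of 5.7 and 2.8, as well as DPA, SMR1, CCS52A1 and MYB3R3. SIM, the founding SIAMESE inhibitor, and CCS52A2 had a peak at day 4 only, and E2FA and E2FC at day 8 only. The highest percentile among the 27 genes was 60.5, for E2FC at day 8.

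Some peaks for which the authors listed no gene had a cyclin or KRP as their nearest protein-coding gene. They were looked at after the assigned peaks had been seen. Between 964 and 1006 bp downstream of CYCD1;1 both factors had a peak at all 3 days, with AP1 percentiles of 73.9, 95.2 and 64.4 and SEP3 percentiles of 75.6, 96.2 and 92.2 at days 2, 4 and 8. These ranks exceed those of every peak assigned to the gene in the same lists. SEP3 peaks lay 2293, 2290 and 2065 bp downstream of CYCD3;1 (85.3, 91.2 and 93.2) and 1736, 1699 and 1811 bp downstream of CYCD4;1 (26.4, 87.9 and 79.8). AP1 peaks lay 1006 and 1022 bp downstream of KRP2 at days 4 and 8 (23.4 and 35.8).

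CYCB2;1 (AT2G17620), without an assigned peak, had such a site 3445 to 3515 bp upstream of its start. AP1 peaks there had fold enrichments of 4.26 at day 4 (percentile 51.9) and 4.83 at day 8 (88.7), and SEP3 peaks 9.92 at day 4 (96.9) and 8.33 at day 8 (98.9). These SEP3 peaks outrank every peak assigned to the 36 genes in the same lists. An exact CArG box lay within 50 bp of 3 of the 4 summits, and it is shown in capitals in the window of the SEP3 day 4 summit (chr2:7660490-7660590, plus strand, TAIR10).
CYCB2;1 distal upstream: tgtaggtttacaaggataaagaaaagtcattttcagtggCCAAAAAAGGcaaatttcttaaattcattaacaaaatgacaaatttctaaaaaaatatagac
Whether any of these sites acts on the nearest gene was not tested.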
